A study of Mus musculus with 2 samples.

Results

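To see how the genes of MHC class I antigen processing were expressed in macrophages treated with IR-61, 10 genes were read on both arrays of the series: the heavy chains *H2-K1* and *H2-D1*, the light chain *B2m*, the transport and loading genes *Tap1*, *Tap2* and *Tapbp*, the immunoproteasome subunits *Psmb8*, *Psmb9* and *Psmb10*, and the transactivator *Nlrc5*. These genes were listed by name for their place in the pathway, with earlier results of these data known, out of 20651 genes that could be named on the array. All 10 had a probe that the scanner software called well above background on both arrays, and none of their spots was saturated. The cells were RAW264.7, a macrophage-like line from a tumor that Abelson murine leukemia virus induced in a male BALB/c mouse. One group was 1 culture given vehicle control for 24 h, and the other was 1 culture given IR-61, a near-infrared dye that collects in mitochondria, for 24 h at 10 μM, the dose stated in the legend of the study's heat map. RNA of each culture was read on its own single-colour array, so there is no replicate culture, no test between the conditions was made, and no p-value is given.

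Cells display fragments of their own proteins on MHC class I molecules, which CD8+ T cells inspect. The proteasome cuts proteins into peptides, the TAP transporter carries the peptides into the endoplasmic reticulum, and tapasin and other chaperones load them onto a heavy chain bound to B2m. Interferons raise most of these genes together in macrophages, and NLRC5, the class I transactivator, acts on a shared set of promoter elements, known as the X and Y boxes, of the heavy chain and *B2m* genes.

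The promoters of the chains are shown because those elements can be read in them, and the stretch between *Psmb9* and *Tap1* because these neighbours start from 1 shared region and gave unlike values below. RefSeq sequences of the mouse assembly GRCm38.p6, from C57BL/6J and not from BALB/c, were found for 8 of the 10 genes, and *Tap2* and *Nlrc5* had none. Letters in capitals mark matches on either strand. In the first 3 stretches these are an NF-κB site (GGG, any 2 bases, then TT, any base and CC), part of the X box with the letters TGACG and the Y box with the letters ATTGG. In the last they are the same X box and Y box letters and the GC box with the letters GGGCGG. No marked match overlaps another.
H2-K1, chr17:34000349-34000468, minus strand: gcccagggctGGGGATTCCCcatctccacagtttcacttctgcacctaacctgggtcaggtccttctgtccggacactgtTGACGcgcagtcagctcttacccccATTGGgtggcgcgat
H2-D1, chr17:35262913-35263032, plus strand: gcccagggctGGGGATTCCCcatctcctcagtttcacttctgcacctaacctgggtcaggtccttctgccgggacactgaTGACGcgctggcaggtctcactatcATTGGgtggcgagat
B2m, chr2:122147551-122147648, plus strand: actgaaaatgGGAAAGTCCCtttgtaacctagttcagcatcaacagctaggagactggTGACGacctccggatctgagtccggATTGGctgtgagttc
Between the starts of Psmb9 and Tap1, chr17:34187331-34187555, plus strand, in the direction of Tap1: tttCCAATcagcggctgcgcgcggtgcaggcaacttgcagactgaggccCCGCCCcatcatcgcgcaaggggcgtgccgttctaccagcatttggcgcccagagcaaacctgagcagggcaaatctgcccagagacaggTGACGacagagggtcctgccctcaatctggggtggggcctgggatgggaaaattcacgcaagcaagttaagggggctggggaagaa

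In all 3 chain promoters ATTGG began 25 bases after TGACG. This spacing, on the strand of the gene, was found in 18 of 32851 promoter windows of 250 bases before a start, which is 0.0548% of them, and these windows belonged to 15 genes, of which 3 were *H2* genes and 1 was *B2m*. The *H2* genes were *H2-K1*, *H2-D1* and *H2-M3*. The distance searched was that of the 3 chain promoters, so their own place in this count was set in advance. The NF-κB letters lay 70 bases before TGACG in both heavy chain genes and 48 bases before it in *B2m*. The 120 bases shown for *H2-K1* and *H2-D1* were identical at 108 positions. By themselves the letters were common to very different degrees, since those of the NF-κB site were in 4.11% of all windows, those of the X box in 17.8%, those of the Y box in 33.8% and those of the GC box in 32.7%. The letters GAAA, any 2 bases and GAAA again, a strict form of the interferon-stimulated element, were present in 2.98% of all windows. Among the 8 members with a window they were found in *B2m*, beginning 139 bases before its start. The letters of the gamma-activated element (TTC, any 3 bases and GAA), present in 7.02%, were found in *Psmb8*, beginning 97 bases before its start. Looser forms of either element were not searched, so a member without these letters can still hold such an element. The 225 bases between the starts of *Psmb9* and *Tap1* held 1 match each to the X box, Y box and GC box letters. These matches are letters in a window and were not tested as sites.

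The IR-61 array was brighter as a whole. Its 75th percentile of log2 intensity was 10.79 against 10.30 with vehicle, and each value below is a signal, or a log2 signal minus this percentile, called the scaled signal. A difference is IR-61 minus vehicle on the log2 scale. Over the 16885 genes well above background on both arrays the median difference was 0.10, and 38.8% of them were lower with IR-61. The error that could be measured is that between spots of 1 probe on 1 array, which does not contain the difference between cultures. From probes printed 10 times, it gave an expected SD of 0.09 for the difference of a bright gene printed once. The level of a class I gene was not set against that of another, since each probe has its own brightness.

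Of the 10 genes, 8 were lower with IR-61 and 2 were higher, although without scaling 5 of these 8, *H2-K1*, *H2-D1*, *B2m*, *Psmb8* and *Psmb9*, were higher. The same 8 of 10 genes lay below the median of all measured genes, a place that by definition 50% of all genes take. Their number was 8 under all 13 settings of scaling, background, probe and filter that were tried. Some of these settings could not change it, since median scaling, the percentile over detected probes and no scaling shift every gene of an array alike. The median difference of the 10 genes was −0.32 beside 0.10 over all measured genes. Lower by 2-fold or more was 1 gene of the 10, *Tap1*, where 1.39% of all measured genes passed this limit, and none was higher by 2-fold or more, where 1.99% of all measured genes were. At 1.5-fold, 2 of the 10 were lower, *Tap1* and *Tapbp*, and none was higher, against 5.69% and 9.79% of all measured genes.

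**Figure D1:**
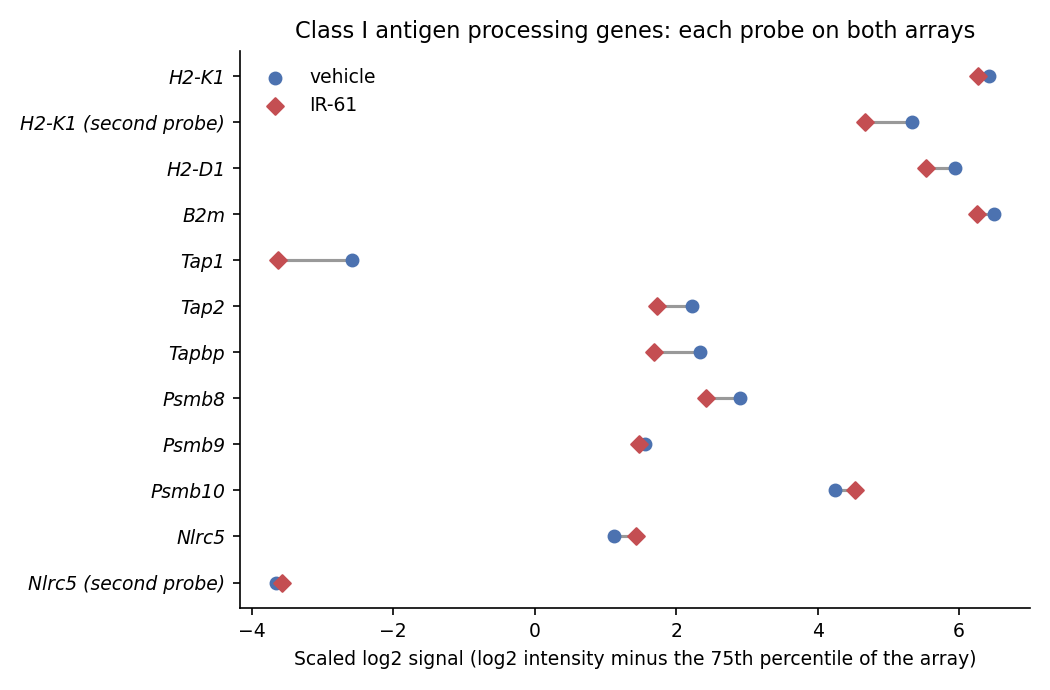
Scaled log2 signal (log2 intensity minus the 75th percentile of the array) of all 12 probes of the 10 genes, with vehicle as circles and IR-61 as diamonds, 1 array each. The longest line is that of *Tap1*, whose difference was −1.04, while *Psmb10* and both probes of *Nlrc5* lie to the right with IR-61. Without scaling *H2-K1* (first probe), *H2-D1*, *B2m*, *Psmb8* and *Psmb9* would also lie to the right.

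*H2-K1* and *H2-D1* encode the classical heavy chains, which hold the peptide. The first probe of *H2-K1* was printed 10 times. Its signal with vehicle ran from 99656 to 119539 with a median of 111160, and with IR-61, over the 9 spots that were not outliers, from 127585 to 147165 with a median of 136870. Every spot was thus brighter with IR-61 before scaling. After scaling, the mean ± SD between spots was 6.43 ± 0.09 with vehicle and 6.27 ± 0.07 with IR-61, the spots of the arrays overlapped, and the difference was −0.16. It was −0.037 with quantile normalization and −0.036 with the deposited log2 values, close to its expected SD from spots. The second probe of *H2-K1*, printed once, had signals of 50843 with vehicle and 45145 with IR-61. It was dimmer with IR-61 even before scaling, and its difference was −0.66, equal to a 1.58-fold lower scaled signal. The expected SD from spots was 0.03 for the first probe and 0.09 for the second, so the probes of this gene differed by more than spot noise.

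*H2-D1* had signals of 77372 with vehicle and 82402 with IR-61, and after scaling a difference of −0.40, or 1.32-fold lower. *B2m* encodes the light chain that pairs with the classical class I heavy chains. Its signals were 113657 with vehicle and 135161 with IR-61, and its difference was −0.24, or 1.18-fold lower, 2.53 times the SD expected from spots, and −0.13 with quantile normalization or the deposited log2 values. All chain genes were lower after scaling and, apart from the second probe of *H2-K1*, higher without it. Relative to the median of all measured genes, *B2m* was at −0.34, *H2-K1* at −0.26 and *H2-D1* at −0.50. The difference of *B2m* minus that of *H2-K1* was −0.08, with an expected SD of 0.10, so the light chain and the first heavy chain probe could not be told apart by spot noise. The cells are of BALB/c origin, whose class I alleles are not those of the reference strain, and heavy chain genes are close in sequence. How far a probe read other alleles or other heavy chains was not tested.

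*Tap1* and *Tap2* encode the subunits of the peptide transporter, and *Tapbp* encodes tapasin, which holds the empty class I molecule beside it. The probe of *Tap1* was printed 10 times on each array. Its signal with vehicle ran from 199.5 to 225.0 with a median of 212.3, and with IR-61 from 130.7 to 157.8 with a median of 143.9. Every spot with IR-61 lay below every spot with vehicle, before and after scaling. The scaled mean ± SD between spots was −2.58 ± 0.06 with vehicle and −3.62 ± 0.08 with IR-61. With a difference of −1.04 the scaled signal was 2.06-fold lower, a gap of 14.4 times the SD of 0.07 expected from spots. Counted from the lowest difference, *Tap1* took rank 208 of the 16885 measured genes. It lay close to the 2-fold limit, which it no longer passed at −0.84 with normexp background correction and at −0.55 without scaling.

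**Figure D2:**
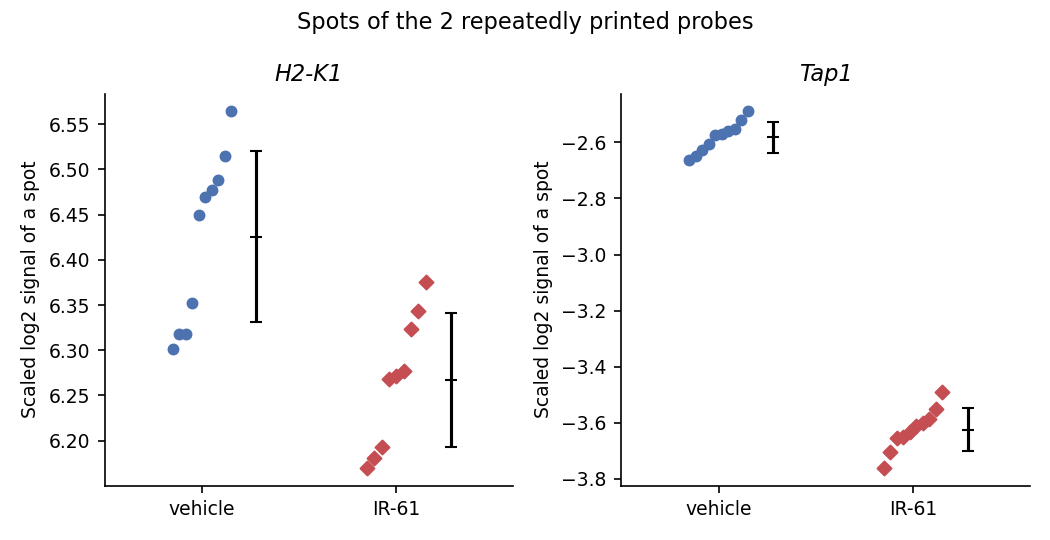
Scaled log2 signal of each spot of the 2 members printed 10 times, *H2-K1* (first probe) and *Tap1*, on the vehicle and the IR-61 array, with the mean and SD between spots in black. The axes do not start at 0 and differ between the panels. The *Tap1* spots of the arrays are separate, and those of *H2-K1* overlap after scaling, though without it every *H2-K1* spot was brighter with IR-61.

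*Tap2* had signals of 5899 with vehicle and 5891 with IR-61, nearly equal before scaling, and a difference of −0.49, or 1.40-fold lower. *Tapbp* had signals of 6383 and 5723, lower with IR-61 also before scaling, and a difference of −0.65, or 1.56-fold lower. The transport and loading genes were the members with the lowest median, −0.65, and all 3 were lower under every setting tried, though *Tap2* was only at −0.002 without scaling. Within the arrays, where scaling by 1 number per array cancels, the difference of *Tap1* minus that of *Tap2* was −0.55 with an expected SD of 0.12. With normexp background correction this gap was −0.38. The transporter genes thus changed unequally beyond the noise between spots, though the size of the gap depended on the background correction.

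*Psmb8*, *Psmb9* and *Psmb10* encode the catalytic subunits that take the places of *Psmb5*, *Psmb6* and *Psmb7* when the proteasome is built as an immunoproteasome. These 3 members did not go together. *Psmb8* had signals of 9463 with vehicle and 9508 with IR-61 and a difference of −0.48, or 1.40-fold lower. *Psmb9* had signals of 3706 and 4939 and a difference of −0.07, which is smaller than the SD of 0.09 expected from spots, and −0.16 with median scaling. *Psmb10* had signals of 24011 and 40995 and a difference of 0.28, or 1.22-fold higher, 3.0 times that SD. *Psmb8* was thus the lowest of the 3 and *Psmb10* the highest, with the difference of *Psmb10* minus that of *Psmb8* at 0.76 (expected SD 0.13) and between 0.72 and 0.86 under the other settings.

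Set against the subunits they replace, the pairs also differed. *Psmb5* had a difference of −0.05, *Psmb6* of −0.17 and *Psmb7* of −0.38. The difference of *Psmb8* minus that of *Psmb5* was −0.43 (expected SD 0.13), or −0.25 against the dimmer probe of *Psmb5*, which had a difference of −0.23. The difference of *Psmb10* exceeded that of *Psmb7* by 0.66 (expected SD 0.13). For *Psmb9* and *Psmb6* the gap was 0.09, within the expected SD of 0.13, and it was below 0 with quantile normalization (−0.087), loess (−0.0091) and the deposited log2 values (−0.092).

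*Psmb9*, *Tap1*, *Psmb8* and *Tap2* follow each other without another coding gene between them on chromosome 17, in the class II part of the MHC. Along this order the differences were −0.07, −1.04, −0.48 and −0.49. *Psmb9* and *Tap1* start away from each other, from the 225 bases shown above, and the difference of *Tap1* minus that of *Psmb9* was −0.97, equal to a 1.96-fold unequal change with an expected SD of 0.12. It was between −0.98 and −0.73 under the other settings. *Psmb10*, which with *Nlrc5* lies on chromosome 8, and *Nlrc5* were the members higher with IR-61.

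*Nlrc5* was read by 2 probes. The brighter had signals of 2749 with vehicle and 4772 with IR-61 and a difference of 0.31, or 1.24-fold higher, 3.25 times the SD expected from spots. The second had signals of 99.8 and 148.8 and a difference of 0.09, within its expected SD of 0.23. Both were brighter with IR-61 before and after scaling, and the second lay at −0.01 from the median of all measured genes. The difference of *Nlrc5* minus that of *Tap1* was 1.35, the widest gap between members, while 27.6% of all measured genes had a higher difference than *Nlrc5*.

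**Figure D3:**
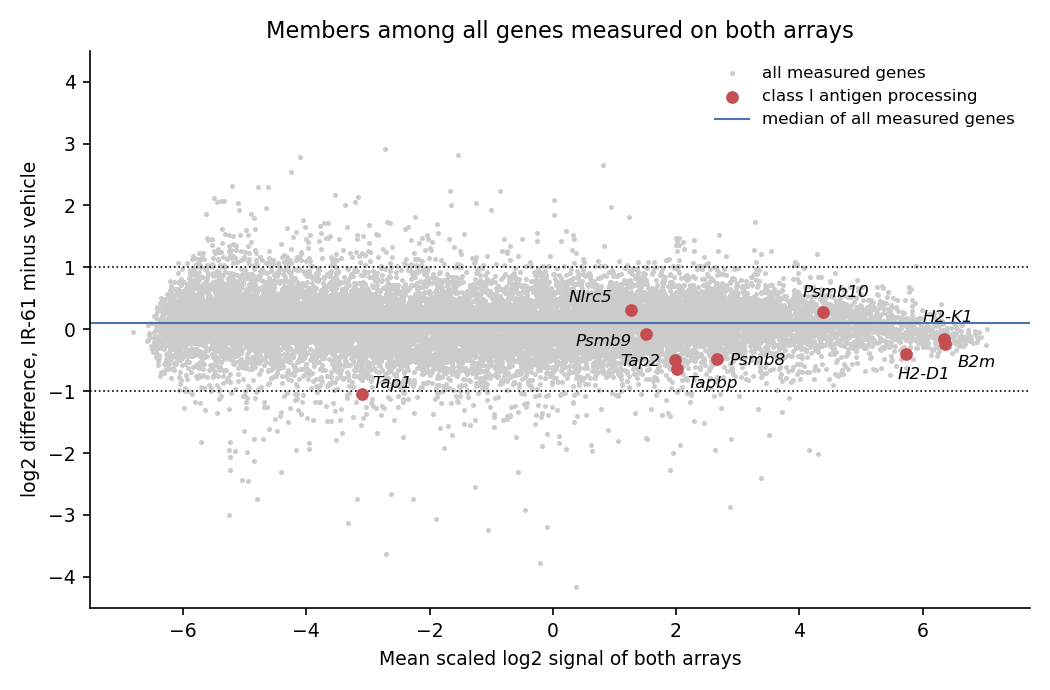
log2 difference (IR-61 minus vehicle) against the mean scaled log2 signal of both arrays for the 16885 measured genes in grey and the 10 genes in red. Dotted lines mark 2-fold and the blue line the median of all measured genes, 0.10. *Tap1* lies just under the lower dotted line, and 8 of the 10 genes lie below the blue line. Without scaling all genes and the blue line shift alike, so these 8 stay below it, but *H2-K1*, *H2-D1*, *B2m*, *Psmb8* and *Psmb9* were above 0.

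Signal alone was set beside these values, because differences on an array can depend on it. The measured genes were cut into 10 classes of equal size by signal, and 4 of the 10 genes lay in the brightest, *H2-K1*, *H2-D1*, *B2m* and *Psmb10*. In that class the median difference was 0.067 and 40.4% of the genes were lower, so the chain genes also lay below the median of their class. The class is wide, and *H2-K1* and *B2m* were near its top, brighter than 99.5% and 99.6% of all measured genes. With loess, which fits the difference to the signal, these genes were at −0.12 and −0.20. *Tap1* lay in class 4, counted from the dimmest, with a median difference of 0.079, where 1.90% passed the 2-fold limit downward.

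**Figure D4:**
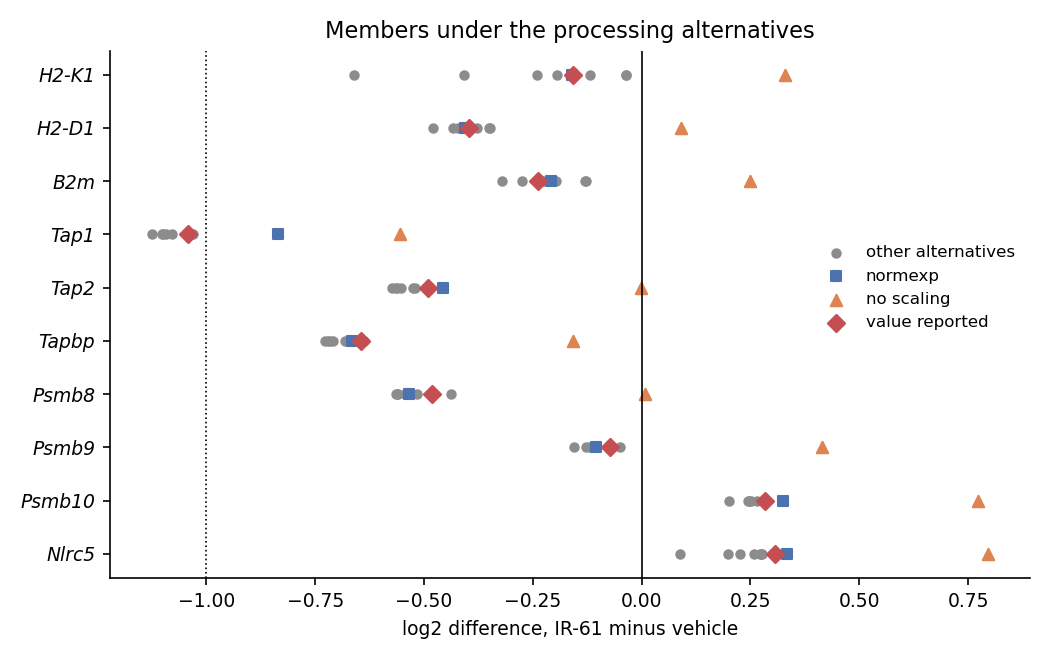
log2 difference (IR-61 minus vehicle) of each of the 10 genes as reported (red) and under the processing alternatives, with normexp background correction in blue, no scaling in orange and all others in grey. The dotted line marks 2-fold lower. *Tap1* is left of 0 under every setting and *Psmb10* and *Nlrc5* right of it, and without scaling *H2-K1*, *H2-D1*, *B2m*, *Psmb8* and *Psmb9* cross to the right of 0.

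The other genes of the pathway were read by lists. None of the proteasome genes outside the members passed 2-fold in either direction. In the list of the proteasome activator and assembly genes, *Psme1* had a difference of −0.17, *Psme2* of −0.16, *Psme3* of 0.03, *Psme4* of −0.26 and *Pomp*, the assembly chaperone, of −0.02. *Psme1* and *Psme2* encode the interferon-inducible activator PA28, and the dimmer probe of *Psme2* had a difference of −0.67. The other 11 subunits of the 20S core had a median of 0.01, with 5 lower and 6 higher, from *Psma6* at −0.45 to *Psma7* at 0.56.

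Among 9 chaperones and trimming factors of the endoplasmic reticulum the median was −0.01, with 5 lower and 4 higher. The lowest was *Tapbpl*, a tapasin-related peptide editor, with signals of 739.2 and 597.0 and a difference of −0.80, or 1.74-fold lower. The highest was *Canx*, the chaperone calnexin, at 0.30. Of 8 cytosolic peptidases 7 were found and measured, with a median of −0.04, from *Ide* at −0.17 to *Tpp2*, which trims long peptides, at 0.55. The 7 cross-presentation genes had a median of 0.10, equal to that of all measured genes, from *Rab27a* at −0.48 to *Cybb*, a subunit of the phagosomal NADPH oxidase, at 0.40.

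Of 30 other class I and class I-like genes 23 were found on the array and 21 were measured on both. Their median was −0.40, with 12 lower and 9 higher. Among the 21, 2 were lower by 2-fold or more and none higher, beside 1.39% and 1.99% of all measured genes. *H2-Q8* had signals of 1759 with vehicle and 855.5 with IR-61 and a difference of −1.53, or 2.88-fold lower. *H2-M9* had signals of 181.8 and 121.5 and a difference of −1.07, and its second probe did not clear background on any array. *H2-M10.1* had dim signals of 2.86 and 58.3, from 1 spot on each array, and was not well above background with vehicle. Set against the lowest signal among probes well above background there, it was at least 3.64-fold higher with IR-61. The SD expected from spots at such signals was 0.50. *H2-T3* did not clear background on any array. Among the 21 genes measured on both arrays the highest difference was that of *Hfe*, a class I-like regulator of iron uptake, at 0.89.

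By a split made after the values were seen, 11 of the 15 genes with an *H2* symbol were lower, with a median of −0.65, while 1 of the 6 without it was lower, with a median of 0.33. Several bright *H2* probes gave nearly the same value, also picked after the values were seen. The difference was −0.63 for *H2-Q2*, −0.65 for *H2-Q6*, −0.68 for *H2-Q7*, −0.65 for *H2-T23* and −0.72 for *H2-K2*, beside −0.66 for the second probe of *H2-K1*. Without scaling each of these probes was still dimmer with IR-61. Whether they read separate transcripts or share one was not tested. Other bright *H2* probes gave other values, such as 0.06 for *H2-Q4*, −0.40 for *H2-D1*, −0.78 for *H2-M11* and −0.85 for the brighter probe of *H2-Q10*. The likeness is thus that of the chosen probes only. Among genes picked in the same way, *H2-M3*, which has the promoter spacing of the chains, had a difference of 0.34, and *Cd1d1*, which presents lipids, of 0.78 on its brighter probe and −0.21 on its second.

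The 14 factors of class I promoters, which bind the X and Y boxes or carry the interferon signal, had a median of −0.07, with 8 lower and 6 higher and none past 2-fold. The lowest was *Nfyb*, a subunit of the Y box factor NF-Y, at −0.92, and its 2 other probes gave −1.01 and −1.12. The highest was *Atf1* at 0.90, whose second probe gave 0.09. *Irf1*, an interferon-induced activator of class I genes named here after its value was seen, had signals of 36616 and 35416 and a difference of −0.54. The 8 interferon receptor and kinase genes had a median of −0.03, from *Tyk2* at −0.49 to the inhibitor *Socs1* at 0.49. *Ifnar1*, named here after its values were seen, was at −0.006 on its brightest probe and at −0.98 and −1.28 on its 2 other probes.

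Of 13 interferon gamma-inducible GTPases and chemokines 12 were found and 11 were measured, with a median of −0.17 and 7 lower. The chemokine *Cxcl10* had signals of 2624 and 1746 and a difference of −1.08, and the GTPase *Gbp2* had signals of 1736 and 1169 and a difference of −1.06. These were the only genes of the list past 2-fold in the setting reported, and the highest was *Gbp4* at 0.34. The class II pathway, which shows peptides to CD4+ T cells, had 13 genes on the array and 12 measured, with a median of −0.002 and 6 lower and 6 higher. It ran from *H2-Oa* at −0.54, with signals of 29.8 and 28.7, to *H2-DMb1* at 0.40, and none passed 2-fold. *H2-DMb1* is the coding neighbour of *Psmb9* on the side away from *Tap1*. Over all lists apart from cell type markers 4 genes outside the members that were measured on both arrays passed the 2-fold limit downward. *H2-Q8* and *H2-M9* were 2 of 21 other class I genes, and *Cxcl10* and *Gbp2* were 2 of 11 interferon gamma-inducible genes. None of the genes of these lists measured on both arrays passed it upward. Over all measured genes the shares were 1.39% downward and 1.99% upward. *H2-M10.1*, with only a bound from 1 dim spot on each array, was past it upward.

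**Figure D5:**
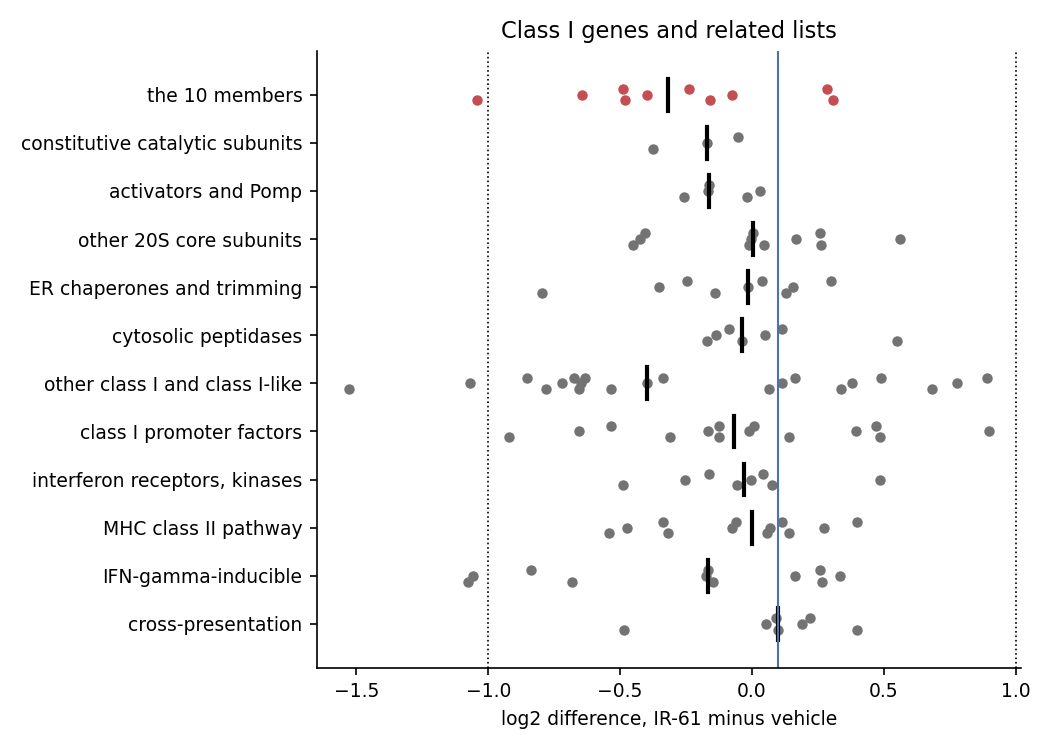
log2 difference (IR-61 minus vehicle, 1 array each) of each gene measured on both arrays, with the 10 members in red and the other lists in grey. Black bars are list medians, the blue line is the median of all measured genes at 0.10 and dotted lines mark 2-fold. The medians of the members (−0.32) and of the other class I genes (−0.40) lie furthest left, and without scaling the zero of this axis would shift by 0.49, which makes the median of the members positive at 0.17.

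The cell identity was checked by markers. Of 8 macrophage markers 7 were found on the array and all 7 were well above background on both arrays. Their summed signals, which were not scaled, were 192640 with vehicle and 369032 with IR-61. After scaling their median difference was 0.06, with 3 lower and 4 higher, beside 0.10 over all measured genes. *Adgre1*, which encodes F4/80, was 2.04-fold higher with IR-61 and *Spi1*, which encodes PU.1, had a difference of −0.83. Of 10 markers of other cell types, *Ncr1* and *Epcam* did not clear background on any array. The summed signals of this list, also not scaled, were 28864 and 61220. After scaling the list had a median difference of 0.06, with 4 lower and 4 higher. Its highest difference was that of the collagen gene *Col1a1*, at 0.62, with signals of 27148 and 58670, and its lowest among genes measured on both arrays that of the keratin gene *Krt8*, at −0.41, within its expected SD of 0.50. The part of these shifts in the differences of the class I genes was not tested. Less of a transcript per cell and fewer cells that make it cannot be told apart in these bulk samples.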

How the data were processed

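RAW264.7 cells treated with vehicle or IR-61 were compared, 1 array each. The authors scanned the slides and deposited Agilent Feature Extraction files with the intensity of each spot, background-subtracted and detrended within the array. The file headers name version 11.0.1.1, the submitters' notes 11.0.0.1, and the array design assembly mm9. The authors also deposited log2 values per probe. Both of these columns had a median of 7.15 and shared their quartiles, and how they were scaled and centred is not given in the sources used here. Their differences for the members were close to those with quantile normalization, with *Tap1* at −1.10 and −1.09. These values and quantile normalization should thus not be read as separate settings.

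Control spots and outlier spots, 124 with vehicle and 139 with IR-61, were left out. The mean log2 intensity of the spots of each probe was taken, less the 75th percentile of its array. Of 39419 probes 27218 were named through RefSeq accessions (GRCm38.p6 gene table, used for names, neighbours and promoters). A gene took its brightest unsaturated probe. Of all probes, 77.6% were well above background on the array of vehicle and 81.2% on that of IR-61. The SD between spots, by log2 intensity, was 0.37 and 0.34 under 6, 0.18 and 0.14 from 6 to 10, and 0.07 and 0.06 above 10 for vehicle and IR-61. It covers noise within an array only, and precision is limited by having 1 array per condition. A dim gene has a bound, from the lowest signal among probes well above background.

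The members and lists were chosen with earlier results of these data known. Named are all members, every gene of a list of 5 or fewer, and otherwise the lowest and highest difference of a list and any gene past 2-fold. The lists were constitutive catalytic subunits, activators, 20S core subunits, endoplasmic reticulum chaperones, cytosolic peptidases, other class I genes, promoter factors, interferon receptors and kinases, the class II pathway, interferon gamma-inducible genes, cross-presentation and cell type markers.

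The steps were tested on simulated arrays with 17033 measured genes and 200 changed genes, each changed by at least 2-fold. Of these, 100% had the right direction for IR-61 against vehicle, and 185 unchanged genes passed 2-fold. The simulated arrays differed by spot noise and an even shift only, with no difference between cultures. The result thus does not cover differences under 2-fold, such as those of most members. Alternatives were other scalings (median, percentile over detected probes, quantile, loess with a span of 0.3, none), the deposited log2 values, normexp (offset 50, on median signals, since the columns used here hold no mean signal), other probe rules, outlier spots kept, filters on dim probes (none, or signals at least 4 times the lowest detected), a row and column trend removed, and a 1.5-fold limit. For normexp, 4 spots on the IR-61 array whose background exceeded their signal took the median background. Normexp was run with limma 3.58.1 in R 4.3.3. All else was run in Python 3.11.15 using pandas 2.3.3 and numpy 2.4.6, with loess from statsmodels 0.14.6 and plots from matplotlib 3.10.9.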

Additional observations from a re-analysis of the deposited data

How the results depend on the processing

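No paired analysis was possible because vehicle and IR-61 were read on 1 array each, which leaves no replicate to pair. A value was taken as the same where it moved by less than the SD expected from spots. Counts were taken as the same within a factor of 1.5. Of 130 values of single members under other settings, 107 were the same and 23 moved. Many of these could not move, so the share that stayed the same is no measure of stability. The filters on dim probes do not alter the value of a member. The other probe rules alter only a member with more than 1 probe. *Tap1*, the 1 member past 2-fold, did not change direction. Of the members under 2-fold, 5 that were lower as reported were higher without scaling. The median of all measured genes, 0.10, moved to 0.59 without scaling and to −0.03 with normexp. *Tap1* was the gene lost from the 2-fold limit in the 2 settings where 0 members passed it, no scaling and normexp, and with a 1.5-fold limit 2 members passed. The median of the members was 0.17 without scaling and −0.44 with the dimmest detected probe. Measured from the median of all genes it was −0.42, and moved to −0.28 with quantile normalization, −0.28 with the deposited values and −0.28 with normexp.

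List medians below are also measured from that of all genes. With quantile normalization they moved to −0.070 for the constitutive catalytic subunits, −0.17 for the activators and −0.39 for other class I genes. With loess the first was −0.16. With the deposited values the same 3 were −0.067, −0.17 and −0.40. With normexp they were −0.13, −0.12 and −0.37, with 0.063 for the 20S core, 0.013 for chaperones, 0.070 for peptidases, −0.061 for promoter factors, 0.035 for interferon receptors and kinases, −0.10 for interferon gamma-inducible genes and 0.13 for cross-presentation. With the mean over detected probes peptidases were at −0.030 and cross-presentation at 0.11. With the dimmest detected probe the activators were at −0.51, peptidases at −0.016, other class I genes at −0.40 and cross-presentation at 0.12. Of the list genes lower by 2-fold, 4 as reported, 1 passed without scaling and 16 at 1.5-fold. Of the list genes higher by 2-fold, 0 as reported among those measured on both arrays, 6 passed without scaling, 1 without a filter on dim probes and 4 at 1.5-fold. Over all 16885 measured genes, 72 were lower and 2156 higher by 2-fold without scaling. At 1.5-fold, 5.69% of all measured genes were lower and 9.79% higher.

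Of all genes past 2-fold, 41.2% were lower as reported, 54.2% with median scaling, 52.1% with quantile normalization, 52.2% with loess, 51.4% with the deposited values, 54.6% with normexp and 3.23% without scaling. The causes of these moves were not tested. The dimmest member probe, the second of *Nlrc5*, had a signal of 99.8 with vehicle, against a lowest signal of 11.4 among probes well above background there.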
